A study of Mus musculus with 20 samples.

Results

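The mouse genes described here build and serve the neuromuscular junction, the synapse at which a motor nerve ending signals to a muscle fibre. They are 10 genes chosen by name, the acetylcholine receptor subunit genes Chrna1, Chrnb1, Chrnd and Chrne, the clustering genes Rapsn, Musk and Lrp4, and the acetylcholinesterase gene Ache with its anchor genes Colq and Prima1. All 10 were on the array, through 11 probe sets annotated to a single gene, of 34945 such probe sets in the whole table, and Prima1 alone had more than 1. A probe set is a group of short probes that together give 1 value for a transcript. Gastrocnemius muscle was compared between 10 samples of mice given JA16, an antibody against the muscle growth inhibitor myostatin, and 10 samples of mice given saline. JA16 was injected into the peritoneum on day 1 at 0.12 mg per g body weight and on day 3 at 0.09 mg per g, saline on the same days, with muscle taken on day 5. The labels used here state no genotype, strain, sex or age, and do not say that each sample came from its own mouse. If one mouse gave several samples, p-values cover no more than the spread among those samples, which may be in part technical. Values are MAS5 intensities on a linear scale, with every array scaled to a trimmed mean of 500.0. By the labels, the arrays of each pair were numbered one after the other with saline first, so array order within a pair and treatment cannot be told apart.

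At the junction, nerve-released acetylcholine opens a receptor that in adult muscle holds alpha, beta, delta and epsilon subunits, and in fetal or denervated muscle a gamma subunit (Chrng) in place of epsilon. Nerve-derived agrin binds LRP4, which activates the kinase MuSK, and rapsyn then holds the receptors in dense clusters. Acetylcholinesterase ends each signal, and is held in the synaptic basal lamina by the collagen tail ColQ or in membranes by the small protein PRiMA. The nuclei beneath the nerve ending transcribe many of these genes far more than the other nuclei of the same fibre. Whole muscle holds few such nuclei, and in a bulk sample fewer cells of a type and less RNA per cell cannot be told apart.

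Upstream sequence is shown for Chrne, the adult receptor subunit, and Chrna1, a subunit shared by the fetal and adult receptors, because these genes stood at opposite ends of the range in 1 saline sample, and for Prima1, the member with the lowest p-value. RefSeq promoter windows of build GRCm38.p6 were found for 6 of the 10 members, and the 250 bases before the annotated start are given 5′ to 3′, all on the minus strand. Capitals mark the E-box, CANNTG, a motif of myogenic transcription factors, and the N-box, CCGGAA, a motif of Ets factors that act in junctional nuclei. Both strands were searched, and no match of one motif overlapped a match of the other.
Chrne: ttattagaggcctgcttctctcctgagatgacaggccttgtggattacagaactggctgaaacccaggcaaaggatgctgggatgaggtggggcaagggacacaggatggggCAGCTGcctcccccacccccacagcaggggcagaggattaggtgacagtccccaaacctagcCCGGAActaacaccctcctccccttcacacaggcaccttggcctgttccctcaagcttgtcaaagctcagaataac
Chrna1: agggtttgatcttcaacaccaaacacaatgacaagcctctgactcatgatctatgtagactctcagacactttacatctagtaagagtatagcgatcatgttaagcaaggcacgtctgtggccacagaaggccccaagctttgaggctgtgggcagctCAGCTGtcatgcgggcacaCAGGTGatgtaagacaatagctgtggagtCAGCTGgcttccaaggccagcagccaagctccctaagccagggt
Prima1: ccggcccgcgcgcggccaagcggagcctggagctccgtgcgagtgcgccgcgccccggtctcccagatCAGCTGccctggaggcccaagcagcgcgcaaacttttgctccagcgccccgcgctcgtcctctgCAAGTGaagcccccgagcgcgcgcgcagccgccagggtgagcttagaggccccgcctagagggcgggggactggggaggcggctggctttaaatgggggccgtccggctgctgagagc
These windows lie at chr11:70619195-70619444, chr2:73580339-73580588 and chr12:103242147-103242396. The Chrne window held the E-box CAGCTG at -138 to -133 and the N-box CCGGAA at -76 to -71, counted back from the start. The Chrna1 window held 3 E-boxes, at -92 to -87, -73 to -68 and -44 to -39. The Prima1 window held 2, at -182 to -177 and -118 to -113. An N-box match was found in 1 of the 6 members' windows and in 12.0% of all 32851 windows, and an E-box match in all 6 and in 66.2% of all windows.

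The arrays had the markers of fast muscle in every sample. A fast fibre list of 10 genes included Myh4 and Actn3, and also the broader muscle genes Acta1 and Ckm. Their mean intensities ran from 14782 to 27263 in JA16 samples and from 16008 to 26076 in saline samples. The JA16 means were higher in 8 of these 10 genes and lower in 2, with none past the adjusted threshold. Array medians ran from 38.9 to 62.1 in JA16 and from 43.1 to 77.1 in saline samples. Replicates 7 to 10 were set apart from replicates 1 to 6 in both groups by the beta-actin control probes, whose 3′ over 5′ log2 ratio ran from 0.48 to 0.64 in replicates 7 to 10, against 1.33 to 1.84 in replicates 1 to 6. The labels name no batch for this split. Within replicates 1 to 6 the ratio ran from 1.33 to 1.83 in JA16 and from 1.69 to 1.84 in saline samples. Within replicates 7 to 10 it ran from 0.50 to 0.58 in JA16 and from 0.48 to 0.64 in saline samples. The ratio was thus not fully separate from treatment, which bears on the fits that use it as a covariate. Same-numbered JA16 and saline samples deviated together from their group means in all 10 pairs, so fits with the replicate number as a block are given beside the fit without it. By these deviations 5 of the 10 JA16 samples and 6 of the 10 saline samples were most like their own partner. The rest were most like a differently numbered sample.

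Saline replicate 7 stood apart in genes of immature or denervated muscle. Its intensity of Myh3, the embryonic myosin heavy chain, was 3878, against 45.1 to 283 in the other 19 samples. Chrng, the fetal receptor subunit, was at 505, against 1.4 to 47.3. The myogenic regulator gene Myog was at 2132 (151.5 to 781.5 in the others), the transcription factor gene Runx1 at 572 (39.6 to 132) and the adhesion gene Ncam1 at 2904 (282 to 918). Of the 9 genes of a denervated muscle list with a probe set, saline replicate 7 was the highest of all 20 samples in 6. Each of these genes was taken by its brightest probe set above the filter described below. Where none passed, as for Chrng, the brightest of all was taken. Chrng had 3 probe sets, Runx1 6 and Ncam1 7, and the others of these genes were not looked at in this sample. Ranked among all 20 samples, the junction genes fell into a high, a low and a middle set in this sample. Chrna1 (2574.5, others 341 to 1662), Chrnb1 (2096, others 1064 to 2094), Chrnd (57.7, others 1.3 to 31.8) and Colq (67.2, others 5.7 to 65.0) were at their highest. Chrne (301, others 304.5 to 813) and Lrp4 (495, others 511.5 to 1772) were at their lowest. Rapsn, Musk, Ache and the brighter Prima1 probe set ranked from 8 to 12 among the 20, with 1 the highest. The dimmer Prima1 probe set ranked 18, at 18.2 against 37.7 to 91.6 in the other saline samples. Several of these genes differed between replicates 7 to 10 and 1 to 6. Among saline replicates 7 to 10 alone, replicate 7 was the lowest in Rapsn (777.5, others 1327 to 1841). It was also the lowest there in the brighter Prima1 probe set (180, others 362 to 426), while Musk and Ache lay inside the range of the others. JA16 replicate 7, its partner, held the next highest Myh3 (283), Chrng (47.3) and Myh8 (164, against 416 in saline replicate 7), the last a perinatal myosin gene. The margins of Chrnb1, Chrne, Lrp4 and Colq over the next sample were small, while Chrna1 and Chrnd lay further outside. Chrnd and Colq were dim, below the filter described below. Saline replicate 7 also had the highest array median of all, 77.1, against 38.9 to 63.1 in the other samples. The part of that array-wide level in the ranks of dim probe sets was not tested. Over the 8 denervated muscle genes above the filter described below, 3 were higher and 5 lower in JA16, with summed intensities of 3430 to 5419 in JA16 and 2933 to 14081 in saline samples, the last being saline replicate 7, without which the highest was 5174. Saline replicate 7 also held the highest saline sums of 2 lists used further below. These were a macrophage list (9670, other saline samples up to 8709, JA16 samples up to 11410) and a list of neuregulin signalling and junctional transcription (3875, other saline samples up to 3179, JA16 samples up to 3219). Main results that rest on this sample are also given without it or its pair.

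**Figure D1:**
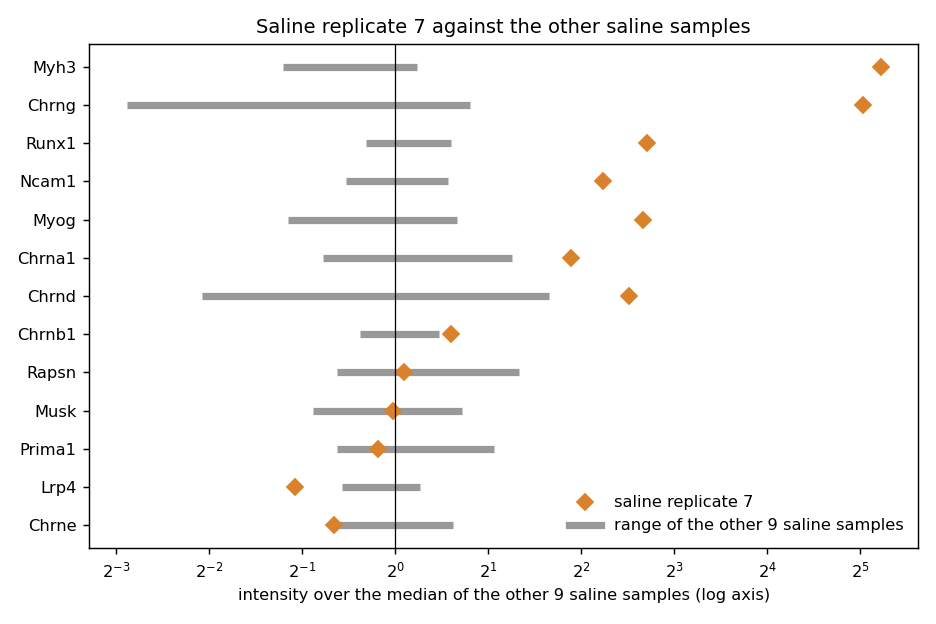
Intensity of saline replicate 7 (diamonds) over the median of the other 9 saline samples, for Myh3, Chrng, Runx1, Ncam1, Myog and 8 junction genes, on a log axis. Grey bars span the other 9 saline samples. Myh3 and Chrng lay 37.3 and 32.6 times above that median, Chrna1 3.70 times above, and Lrp4 and Chrne at 0.476 and 0.637 of it.

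The comparison of JA16 with saline samples asks whether junction transcripts differ on day 5, after both antibody injections. Of the 11 member probe sets, 8 (of 8 genes) passed a filter on dim signal, which kept probe sets whose mean log2 intensity reached the array-wide median of 5.65, or 50.1 in intensity. The single Chrnd and Colq probe sets and 1 of the 2 Prima1 probe sets lay below it. None of the 8 passed a limma adjusted p of 0.05 over the 22519 probe sets tested, either without the block, where 0.00888% of all probe sets passed, or with it, where 0.2% did. At an unadjusted p under 0.05, limma gave 2 of 8 members without the block, against 2.22% of all probe sets, and 3 of 8 with it, against 15.7%. The 3 were Prima1, lower in JA16 as were 9.31% of all probe sets, and Chrne and Ache, higher in JA16 as were 6.37%. In the blocked fit with no filter 0 of 11 passed the adjusted threshold, against 0.0666% of probe sets, and 5 of 11 had an unadjusted p under 0.05, against 10.3%. The median log2 fold change was 0.05 over the 8 members and -0.04 over all probe sets tested, with 4 members higher and 4 lower in JA16.

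Prima1, which anchors acetylcholinesterase in membranes, differed most among the 8. The brighter probe set had a lowest intensity of 44.0, a median of 117 and a highest of 187 in JA16 samples, against 132, 202 and 426 in saline samples. The groups overlapped, with 6 JA16 samples below every saline sample and 6 saline samples above every JA16 sample. Within pairs it was lower in JA16 in all 10, at between 0.215 and 0.786 of the saline partner. The mean intensity was 122 ± 41.8 in JA16 and 239 ± 110 in saline samples (SD, n = 10 each), a log2 fold change of -0.94. Its standard error (SE) was 0.27 and its limma adjusted p 1.00 without the block, and 0.18 and 0.0533 with it, just outside the threshold, with a 95% interval of -1.33 to -0.55. With the beta-actin ratio as a covariate beside the block the value was again -0.94 (SE 0.23), with an adjusted p of 0.286. With 1 probe set per gene, which cut the table to 11201 rows, the blocked adjusted p was 0.0484, inside the threshold that 0.277% of genes passed. That call held without pair 1 (adjusted p 0.0416) and was lost without any other single pair (adjusted p from 0.0528 to 0.128).

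The dimmer Prima1 probe set pointed the same way. Its lowest, median and highest intensities were 3.4, 42.8 and 54.7 in JA16 samples, against 18.2, 60.8 and 91.6 in saline samples. It was lower in JA16 in 9 of 10 pairs, and the pair that went against this was pair 7, with 47.5 in JA16 and 18.2 in saline. In a limma fit of all 45037 probe sets with no filter and with the block, its log2 fold change was -0.89 (SE 0.37, adjusted p 0.433) with a range from -1.14 (SE 0.34) without pair 7 to -0.60 (SE 0.32) without pair 10. With 16 added to each intensity it was -0.54 (SE 0.21). The brighter probe set was at -1.01 (SE 0.19) in the filtered fit without pair 7, and within replicates 7 to 10 alone it was at -1.05 (SE 0.25), against -0.86 (SE 0.25) within replicates 1 to 6.

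Colq, the gene of the collagen tail that ties acetylcholinesterase to the basal lamina, was dim on these arrays. Its lowest, median and highest intensities were 5.7, 32.15 and 47.9 in JA16 samples, against 25.0, 38.95 and 67.2 in saline samples. The groups overlapped through most of their range, and JA16 was lower in 8 of 10 pairs, pairs 3 and 4 being the other 2. The log2 fold change with no filter and with the block was -0.61 (SE 0.30, limma adjusted p 0.5). It was -0.40 without pair 1 and -0.57 (SE 0.33) without pair 7. With 16 added to each intensity before the log, which damps dim values, it was -0.37 (SE 0.17).

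Ache, the enzyme these anchors hold, lay on the other side of 0. Its lowest, median and highest intensities were 204, 367 and 532 in JA16 samples, against 165, 296 and 416 in saline samples. The groups overlapped widely, yet JA16 was higher in 9 of 10 pairs, and pair 10 alone was lower. The means were 360.2 ± 106 in JA16 and 283 ± 85.9 in saline samples (SD, n = 10 each). The log2 fold change was 0.36 with an SE of 0.20 without the block (limma adjusted p 1.00) and 0.13 with it (adjusted p 0.233, interval 0.08 to 0.63). In the blocked fits of each array set replicates 7 to 10 gave 0.33 (SE 0.24), against 0.37 (SE 0.15) for replicates 1 to 6.

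**Figure D2:**
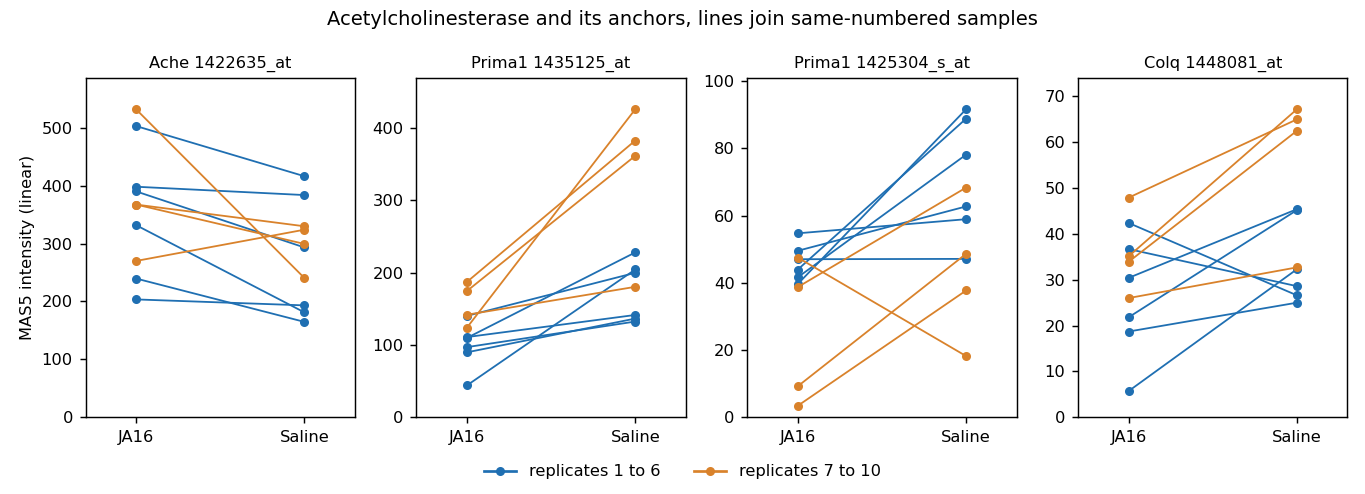
MAS5 intensity (linear axis from 0) of Ache, the 2 Prima1 probe sets and Colq in JA16 samples (left) and saline samples (right). Each line joins same-numbered samples, and colour marks replicates 1 to 6 and 7 to 10. Lines of the brighter Prima1 probe set are lower at the JA16 end in all 10 pairs, while those of Ache are higher at that end in 9.

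Chrne, the adult receptor subunit, was, with Ache, the other member whose blocked interval lay above 0. Its lowest, median and highest intensities were 381.5, 586 and 813 in JA16 samples, against 301, 463 and 730.5 in saline samples. JA16 was higher in 8 of 10 pairs, with pairs 1 and 5 lower. The means were 571 ± 123 in JA16 and 451 ± 130 in saline samples (SD, n = 10 each), a log2 fold change of 0.36 with an SE of 0.17 without the block (limma adjusted p 1.00) and 0.12 with it (adjusted p 0.209). All 4 pairs of replicates 7 to 10 were higher and gave 0.71 (SE 0.18), against 0.12 (SE 0.12) for replicates 1 to 6, of which 4 of 6 were higher. A limma test of the difference between these values gave 0.59 (SE 0.20, adjusted p 1.00), with an unadjusted p of 0.0108, and 0 of the 22519 probe sets passed that test (0%). Without pair 7, which held the lowest saline value, the blocked log2 fold change was 0.30 (SE 0.12).

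The other receptor subunits did not share that sign throughout. Chrna1 had a lowest intensity of 341, a median of 679 and a highest of 1532 in JA16 samples, against 407, 712 and 2574.5 in saline samples. The log2 fold change was -0.24 (blocked SE 0.12, blocked limma adjusted p 0.362), with JA16 lower in 7 of 10 pairs, and it was -0.15 without pair 7 and -0.15 without pair 4. Without the block, leaving out 1 sample moved it between -0.36 (saline replicate 3) and -0.06 (saline replicate 7). Such a fit also shifts the balance of replicates 7 to 10 and 1 to 6 between the groups, and the part of this shift was not tested. Chrnb1, the beta subunit, ran from 1218 to 2094 in JA16 and from 1064 to 2096 in saline samples, with medians of 1678 and 1435 and a log2 fold change of 0.14 (blocked SE 0.09, blocked limma adjusted p 0.426). JA16 was higher in 6 of 10 pairs, and without pair 7 the log2 fold change was 0.16 (SE 0.09) in the blocked fit with no filter. With the beta-actin ratio as a covariate beside the block the Chrnb1 value was 0.03 (SE 0.09).

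Chrnd, the delta subunit, was near the bottom of the scale. Its lowest, median and highest intensities were 1.3, 2.55 and 19.3 in JA16 samples, against 2.4, 10.3 and 57.7 in saline samples. JA16 was lower in 7 of 10 pairs, and the pair differences ran from -4.41 to 2.67 on the log2 scale. With no filter and the block the log2 fold change was -1.56 (SE 0.71, limma adjusted p 0.471), and -1.26 (SE 0.74) without pair 7. With all pairs it was -0.49 with 16 added to each intensity. The size of the difference thus depended on how these dim values were put on the log scale.

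None of the clustering genes passed the test, and their intervals held 0. Rapsn, which tethers the receptors, ran from 408 to 1924.5 in JA16 and from 471 to 1841 in saline samples, with medians of 772 and 753. Its log2 fold change was -0.13, with a blocked interval of -0.31 to 0.06 (blocked limma adjusted p 0.47), and -0.20 (SE 0.10) with the beta-actin ratio as a covariate too. Musk, the receptor kinase, ran from 328 to 783 in JA16 and from 246 to 742 in saline samples, with medians of 523 and 449 and a log2 fold change of 0.26 (blocked interval -0.06 to 0.59, blocked limma adjusted p 0.403). Lrp4, the agrin receptor, ran from 511.5 to 1772 in JA16 and from 495 to 1254 in saline samples, with medians of 847 and 1025. Its log2 fold change was -0.04 (blocked interval -0.27 to 0.19, blocked limma adjusted p 0.875), and it was 0.03 when array medians were centred. Without pair 7 it was -0.10 (SE 0.10) in the blocked fit with no filter. The blocked intervals leave room for differences of up to 1.50-fold for Musk and 1.14-fold for Lrp4 above saline. Below it they reach 0.804-fold for Rapsn and 0.829-fold for Lrp4. Intervals without the block are wider, at 0.889-fold to 1.62-fold for Musk, 0.716-fold to 1.32-fold for Lrp4 and 0.597-fold to 1.40-fold for Rapsn.

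**Figure D3:**
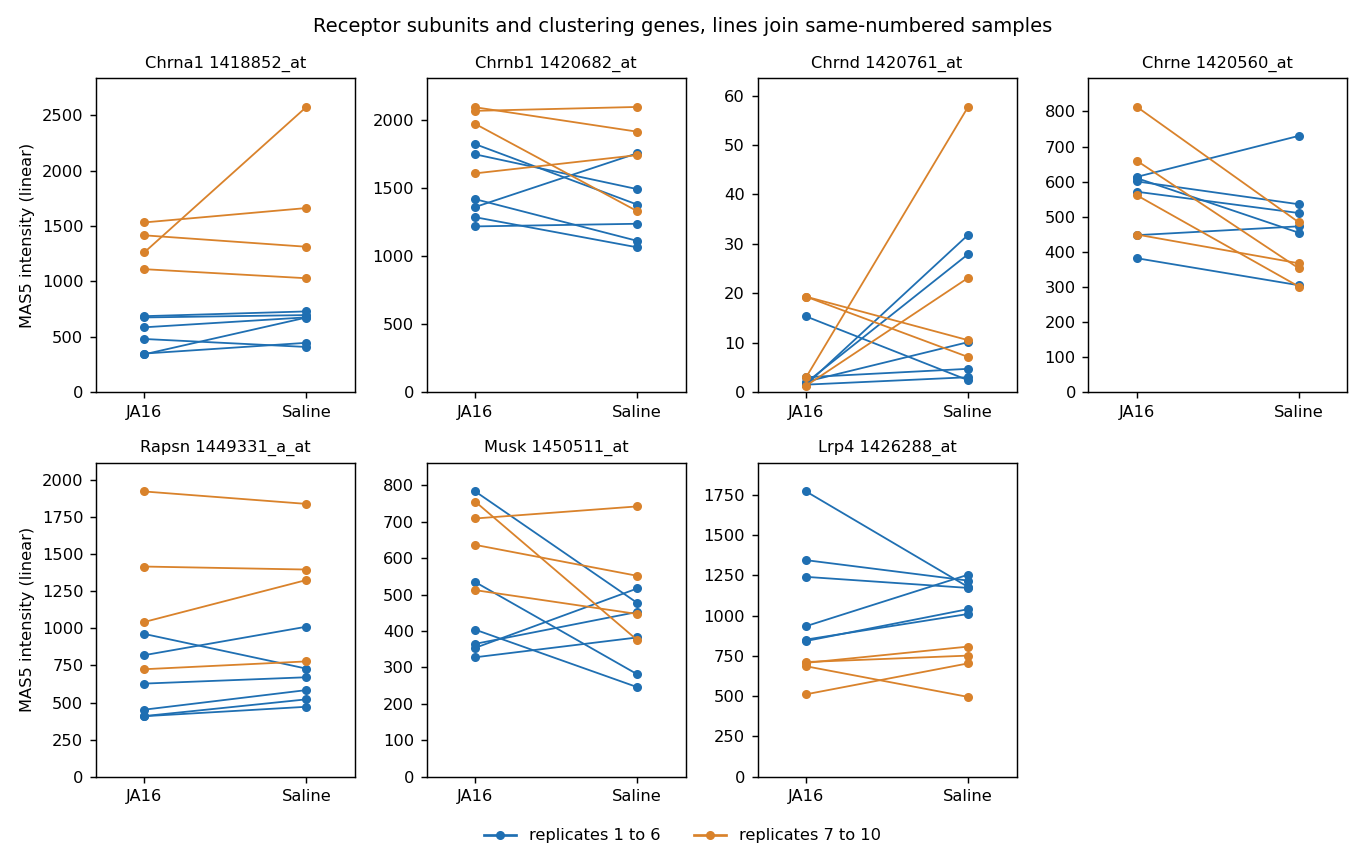
MAS5 intensity (linear axis from 0) of the receptor subunit and clustering genes in JA16 samples (left) and saline samples (right). Each line joins same-numbered samples, and colour marks replicates 1 to 6 and 7 to 10. Replicates 7 to 10 lie above replicates 1 to 6 in both groups for Chrna1 and below them in both for Lrp4, while the JA16 and saline ends overlap in every panel.

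**Figure D4:**
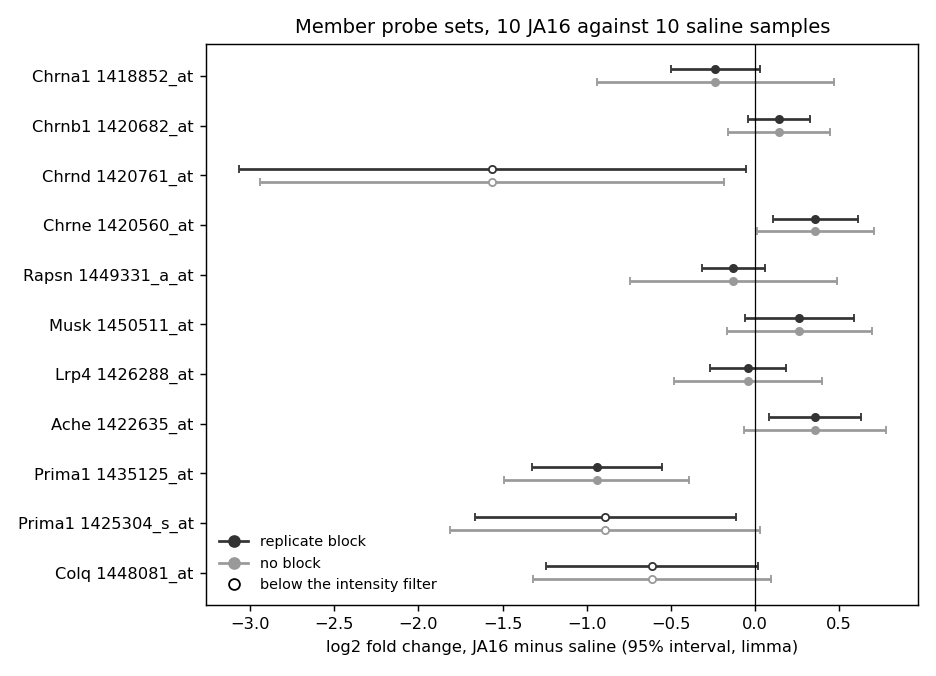
Log2 fold change of each member probe set, JA16 minus saline, with its 95% interval from limma, with the replicate block (dark) and without it (grey). Open symbols are probe sets below the intensity filter, from fits with no filter. With the block the intervals of Chrne (0.10 to 0.61) and Ache (0.08 to 0.63) lie above 0 and those of Chrnd and both Prima1 probe sets below it.

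Differences between pairs 7 to 10 and pairs 1 to 6 were large for several members. Chrna1 was 2.64-fold higher in pairs 7 to 10 than in pairs 1 to 6, as the mean of each pair's log2 intensities (log2 difference 1.40, SE 0.21, limma adjusted p 4.49e-04, 4 against 6 pairs). In JA16 samples the range was 1109.5 to 1532 for replicates 7 to 10, against 341 to 685 for replicates 1 to 6. In saline samples it was 1028 to 2574.5 for replicates 7 to 10, against 407 to 728 for replicates 1 to 6. The 2 sets of replicates did not overlap in either group.

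Lrp4 showed the opposite order, at 0.586 of the level of pairs 1 to 6 in pairs 7 to 10 (log2 difference -0.77, SE 0.16, limma adjusted p 0.00294). In JA16 samples Lrp4 was 511.5 to 712 for replicates 7 to 10, against 843 to 1772 for replicates 1 to 6. In saline samples it was 495 to 808 for replicates 7 to 10, against 1010.4 to 1254 for replicates 1 to 6. Rapsn was 2.03-fold, the brighter Prima1 probe set 1.77-fold and Chrnb1 1.32-fold higher in pairs 7 to 10 (limma adjusted p 0.0159, 0.0106 and 0.0407). Musk was at 1.41-fold (adjusted p 0.068), Ache at 1.15-fold and Chrne at 0.935-fold, and these 3 did not pass. Thus 5 of 8 members passed, 4 higher and 1 lower, where 34.6% of all probe sets did (21.3% higher and 13.3% lower), so a difference between these sets was common across the array. Without pair 7 Chrnb1 no longer passed (adjusted p 0.0959) and Musk did (0.0483), while Chrna1, Lrp4, Rapsn and Prima1 still passed (35.3% of all probe sets). Chrna1 and Lrp4 passed in the same direction in JA16 samples alone (24.1% of all probe sets passing), in saline samples alone (31.1%), with quantile normalization (31.7%, with 15.5% higher and 16.2% lower) and with centred medians (33.4%, with 9.33% higher and 24% lower). The median difference over all probe sets was 0.11 as deposited, -0.03 with quantile normalization and -0.21 with centred medians. Ache turned to -0.02 and -0.12 with these scalings. The Prima1 call was lost in JA16 samples alone (adjusted p 0.114), with quantile normalization (0.11) and with centred medians (0.152), and that of Rapsn with centred medians (0.137). The Chrnb1 call was lost in every one of these alternatives (adjusted p 0.0516 to 0.766). The beta-actin ratio and the array medians differ between the same sets, and their part in these differences was not tested.

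Other genes of the junction, taken from a list of 45, had 78 probe sets above the filter in 33 genes. With limma 0 of the 78 passed the adjusted threshold with or without the block. At an unadjusted p under 0.05 with the block 8 of the 78 were higher and 11 lower in JA16, where 6.37% of all probe sets were higher and 9.31% lower. Of the 33 genes 13 were higher and 20 lower by their brightest probe set, with a median log2 fold change of -0.02, against -0.04 over all probe sets. Of 12 measured genes of MuSK signalling 6 were higher and 6 lower, the brightest being Dvl1, a scaffold of Wnt signalling, at 0.13 (SE 0.14, blocked 0.04). Agrn and Dok7, named after their values were seen as the ligand and the adaptor of the MuSK complex, were at -0.21 (SE 0.12, blocked 0.09) and 0.30 (SE 0.22, blocked 0.15). The kinase gene Abl2, also named after its values were seen, was at -0.27 (SE 0.12, blocked 0.09) and lower in JA16 in 10 of 10 pairs. Its blocked limma adjusted p was 0.205. Of 5 genes of neuregulin signalling and junctional transcription 2 were higher and 3 lower, the brightest being the Ets factor gene Etv5 at 0.21 (SE 0.16, blocked 0.09). Erbb3, a neuregulin receptor gene named after its values were seen, was furthest from 0 among the 33, at -0.51 (SE 0.16 with or without the block, blocked limma adjusted p 0.194), and lower in 8 of 10 pairs. Of 8 cytoskeletal and scaffold genes 3 were higher and 5 lower, with plectin, Plec, at 0.02 (SE 0.08, blocked 0.04). Of 7 genes of the synaptic basal lamina 1 was higher and 6 lower, with perlecan, Hspg2, at 0.11 (SE 0.23, blocked 0.09). Bche, the other cholinesterase gene, was at 0.00018 (SE 0.35). Chrng lay below the filter, with a median intensity of 4.85 in JA16 samples and 15.5 in the saline samples other than replicate 7.

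Most markers of other cell types had lower mean levels in JA16 samples. The median log2 fold change over all probe sets tested was itself below 0, at -0.04. All 7 measured genes of a nerve and Schwann cell list of 15 were lower in JA16, and their summed intensity ran from 6941 to 18848 in JA16 samples and from 9483 to 19301 in saline samples, lower in JA16 in 9 of 10 pairs. Mbp, myelin basic protein, was at -0.59 (SE 0.26) and Drp2, a Schwann cell scaffold gene, at -0.79 (SE 0.23). The axon genes Nefl and Nefm and the myelin gene Mag were below the filter, and no marker was at 0 in any sample. All 4 endothelial genes were lower too, with sums of 2107 to 3528 in JA16 and 2881 to 4455 in saline samples, lower in 9 of 10 pairs. All 11 slow fibre genes were lower by their group means, with sums of 8218 to 149130 in JA16 and 54883 to 123080 in saline samples, lower in 7 of 10 pairs, with JA16 replicate 3 the lowest. Of 8 fibroblast and tendon genes 7 were lower, with sums of 22152 to 55063 in JA16 and 31830 to 53589 in saline samples. Of 4 macrophage genes 2 were lower, with sums of 2817 to 11410 in JA16 and 2628 to 9670 in saline samples, and the 1 measured erythroid gene, Alas2, was lower, at 97.1 to 492 in JA16 and 135 to 405 in saline samples. None of these genes passed the adjusted threshold with limma in either fit. At an unadjusted p under 0.05 with the block 11 of the 15 nerve and Schwann cell probe sets were lower, against 9.31% of all. These 15 probe sets came from only 7 genes, with 7 of them from Mbp alone, so they are not 15 separate results. The part of these cell types in the Prima1, Colq, Ache and Chrne values was not tested.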

How the data were processed

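The deposited table holds array intensities, 1 value for each probe set in each of 20 samples, made with MAS5 per the submitters' processing notes. The mean without the lowest and highest 2% was 500.0 on all arrays, so the arrays carry one common scaling. No detection calls were used, and the number of arrays limits the precision. RNA was amplified and labelled with NuGEN kits, per the labels' protocols.

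Before log2 was taken, 5 intensities at or under 0 became 0.1. Of 45101 probe sets 64 controls were left out. By the platform annotation 34945 had a single gene, 932 more than one and 9160 no gene, and 34741 of the single-gene identifiers are in a RefSeq table of assembly GRCm38.p6. The test was limma 3.58.1 (R 4.3.3) with an intensity trend in eBayes, two-sided, JA16 minus saline, adjusted by Benjamini-Hochberg over all 22519 probe sets above the filter. Probe sets below it were tested in fits with no filter. Python work used pandas 2.3.3, numpy 2.4.6 and matplotlib 3.10.9. The fits were tested on simulated data. For the pairing check, deviations of same-numbered samples correlated between 0.449 and 0.783, all above the limit of 0.1, and differently numbered ones had a median of -0.134. The differently numbered ones mix replicates 1 to 6 with 7 to 10, so this median cannot separate likeness within pairs from likeness within these sets. Array correlations of 0.88 to 0.937 showed no copied sample. The genes named are all members and, of the other junction genes, those past the threshold or else the brightest of each role, with exceptions marked in the text. No genes of like pattern were named, since no member passed in either fit. Members, lists and markers were chosen with earlier results of these data known. The treatment of saline replicate 7 and the comparison of pairs 7 to 10 with 1 to 6 were taken up after seeing the data. Alternatives covered normalization, filter, added constant, probe set choice, blocks, the beta-actin ratio as a covariate and samples left out.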

Additional observations from a re-analysis of the deposited data

Results flagged for a closer look

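In JA16 replicate 1 the brighter Prima1 probe set was at 44.0, far below the next JA16 sample at 89.8, and Colq was at 5.7, below the next at 18.7. These 2 of 22 groups of 10 values held a sample whose gap to its neighbour was large for the range of the group on the log2 scale, where chance gives about 1 in 20. Saline replicate 1 was at 204 for Prima1 and 32.3 for Colq. Without pair 1 the blocked log2 fold change was -0.80 for Prima1 (SE 0.16, limma adjusted p 0.0942 with no filter) and -0.40 for Colq (adjusted p 0.611 with no filter).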

How the results depend on the processing

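No member passed without the block, and the replicate block changed no call of a member among the filtered probe sets. With 1 probe set per gene and the replicate block 1 member, Prima1, passed. The number of all probe sets passing, 2 without the block, was 45 with the replicate block, 41 with quantile normalization and the block, 13 with centred medians and the block, 30 with no filter and the block, 27 with 16 added as well, 31 with 1 probe set per gene and the block, 2 with the beta-actin ratio as a covariate and the block, and 9 with the array set as a block. Without the block it was 4 with 1 probe set per gene, 4 without _s_at, _x_at and _a_at probe sets and 1 with the stricter filter, and in each array set alone with the block it was 0 and 0. With 1 sample left out it ran from 2 to 5, and with pairs 1 to 10 left out in turn of the blocked fit it was 38, 52, 14, 13, 8, 7, 11, 14, 14 and 27, while the number of members passing stayed at 0. The members passing between pairs 7 to 10 and 1 to 6, 5 of 8, were 3 in JA16 samples alone, 3 with quantile normalization and 2 with centred medians. Lrp4 turned to 0.027 with centred medians, with or without the block, and ran from -0.15 to 0.048 with 1 sample left out and from -0.11 to 0.0040 with 1 pair left out, with 8.8e-05 without pair 5. The cause of these changes was not tested. Between JA16 and saline samples the other 7 tested members kept their direction in every alternative run. Dim intensities limit what Chrnd, Colq and the dimmer Prima1 probe set can show.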

Other observations

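The 2 Prima1 probe sets ordered the arrays differently. In replicates 7 to 10 the brighter one had median intensities of 158 in JA16 and 372 in saline samples, above its medians of 103 and 171 in replicates 1 to 6. The dimmer one had medians of 23.95 in JA16 and 43.15 in saline samples in replicates 7 to 10, below 45.45 and 70.4 in replicates 1 to 6. In both probe sets and both sets of replicates the JA16 median was below the saline median.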
